A study of Mus musculus with 9 samples.

Results

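Expression of 10 genes was followed in sorted proximal tubular epithelia: the chemokines *Ccl2*, *Cxcl1*, *Cxcl10* and *Cx3cl1*, the macrophage growth factors *Csf1* and *Il34*, the adhesion molecule *Icam1*, and the nuclear factor-κB (NF-κB) genes *Nfkbia*, *Tnfaip3* and *Relb*. They were chosen by symbol, and all 10 were found among the 24421 genes of the table and among the 15583 genes that passed the filter on low values. The 9 libraries were from 3 mice each of the groups called *db/m*, *db/db* and, with drug, *db/db*-dapa. *db/db* mice are homozygous for the Lepr db mutation of the leptin receptor and become obese and diabetic, and *db/m* mice are their heterozygous, non-diabetic controls. Mice of all groups were labelled C57BL/6, carried the SLC34a1GCE allele (GFPCreERT2 under control of the proximal tubular gene *Slc34a1*) and the R26tdTomato reporter, and received 3 mg of tamoxifen 5 times from 8 weeks of age. *db/db*-dapa mice then drank dapagliflozin, an inhibitor of the glucose transporter SGLT2, at 1.5 mg/kg per day for 8 weeks. *db/db* mice received vehicle in the drinking water for the same 8 weeks, and no such treatment is given for *db/m* mice. Live tdTomato+ cells were sorted from digested kidney cortex, although the labels name the tissue only as kidney. The gate was for cells that had recombined the reporter, and markers of other kidney cells were nevertheless present at the levels given with the library totals.

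NF-κB is a family of transcription factors made of paired subunits. In resting cells the subunits are held in the cytoplasm by inhibitors such as IκBα, the product of *Nfkbia*. Cytokines, danger signals or cell stress activate the IKK kinases, the inhibitor is degraded, and the freed factor binds κB sites in promoters of chemokine, adhesion and feedback genes. *Nfkbia* and *Tnfaip3* are themselves targets and end the response. Injured proximal tubules are known to release chemokines and macrophage growth factors that draw monocytes, neutrophils and T cells into the kidney.

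Promoter windows of RefSeq (GRCm38.p6, from 250 bases before to 50 bases after a transcription start) were available for 7 of the 10 genes, in 8 windows. They were searched on both strands for the 10-letter κB consensus. 5 of the 7 genes held a match: *Cxcl1*, *Cxcl10*, *Csf1*, *Nfkbia* and *Tnfaip3*. By window, 5 of 8 held one, against 8.46% of all 32851 windows of the table, and by gene the share over the table was 9.55%. The matching stretches are shown as matches to this consensus, and whether NF-κB acts through them was not tested. Capitals mark the bases that matched, overlapping matches joined, each with 20 flanking bases on either side, read 5′ to 3′ on the strand of the gene.
*Cxcl1*, chr5:90891154-90891204, plus strand: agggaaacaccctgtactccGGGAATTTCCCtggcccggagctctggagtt
*Cxcl10*, chr5:92349019-92349068, minus strand: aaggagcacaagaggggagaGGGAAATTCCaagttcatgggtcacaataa
*Cxcl10*, chr5:92348963-92349013, minus strand: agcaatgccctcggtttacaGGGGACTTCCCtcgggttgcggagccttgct
*Csf1*, chr3:107760594-107760643, minus strand: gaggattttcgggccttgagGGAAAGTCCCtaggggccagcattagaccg
*Nfkbia*, chr12:55492647-55492696, minus strand: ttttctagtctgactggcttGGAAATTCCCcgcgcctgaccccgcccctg
*Tnfaip3*, chr10:19015506-19015555, minus strand: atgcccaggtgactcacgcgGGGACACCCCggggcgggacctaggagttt
*Tnfaip3*, chr10:19015393-19015442, minus strand: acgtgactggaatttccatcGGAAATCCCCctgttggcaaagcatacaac
The *Nfkbia* match began 29 bases before the start, the *Cxcl1* match 71 bases, the *Csf1* match 154 bases, the *Cxcl10* matches 159 and 104 bases, and the *Tnfaip3* matches 125 and 12 bases. Neither the *Cx3cl1* nor the *Icam1* window held these letters. A match describes the letters of a window and is not a measured binding site.

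Library totals ran from 2733349 estimated counts (*db/db* replicate 1) to 9033123 (*db/db*-dapa replicate 3), so 3 counts stood for 1.02 CPM (counts per 1000000 counts of a library, scaled by the trimmed mean of M values) in the shallowest library and 0.339 CPM in the deepest. The test was edgeR's quasi-likelihood test with p adjusted over all genes tested. A call required a log2 fold change beyond 1 in either direction together with an adjusted p below 0.1. Nothing in the sources says whether littermates were used. The p-values treat these 9 mice as independent, which could not be checked. The 12 proximal tubule markers summed to between 18515 CPM and 27353 CPM in every library, against 39.4 CPM to 155 CPM for 12 macrophage and monocyte markers and 835 CPM to 2913 CPM for 8 markers of the loop of Henle, distal tubule and collecting duct. Summed markers of other cells reached at most 218 CPM for endothelium, 220.4 CPM for podocytes, 68.4 CPM for neutrophils, 15.6 CPM for fibroblasts and pericytes and 3.80 CPM for T cells. In bulk libraries such as these, fewer cells of a type and less RNA per cell cannot be told apart.

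*Il34* had the largest difference of the 10 genes. It was 5.52-fold lower in *db/db* than in *db/m* mice and 9.20-fold lower in *db/db*-dapa than in *db/m* mice, and the second difference was called. None of the other 9 genes was called in any comparison. Group means of *Nfkbia*, *Tnfaip3*, *Icam1* and *Cx3cl1* differed by at most 1.36-fold in any comparison. *Cxcl1* was highest in *db/db* mice by mean, but through 1 mouse.

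*Il34* (chr8:110741829-110805924, minus strand) encodes interleukin-34, a ligand of the CSF1 receptor that supports the survival and growth of macrophages. Its level was 11.5, 15.5 and 16.0 CPM in the 3 *db/m* mice, 4.08, 2.2 and 1.52 CPM in *db/db*, and 3.26, 1.18 and 0.226 CPM in *db/db*-dapa. Every diabetic mouse, treated or not, lay below every *db/m* mouse, and the *db/db* and *db/db*-dapa ranges overlapped. The counts behind these levels were 73, 89 and 72 in *db/m*, 12, 11 and 12 in *db/db*, and 23, 9 and 2 in *db/db*-dapa, the last of which is under the level of 3 counts. Group means were 14.3 ± 2.47 CPM in *db/m*, 2.60 ± 1.33 CPM in *db/db* and 1.56 ± 1.55 CPM in *db/db*-dapa (SD, n = 3).

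The log2 fold change of *Il34* in *db/db*-dapa against *db/m* mice was −3.23 (SE 0.63, 95% interval −4.60 to −1.85, edgeR adjusted p = 0.0575), a call. In *db/db* against *db/m* mice it was −2.55 (SE 0.63, 95% interval −3.93 to −1.18, edgeR adjusted p = 0.10005), which missed the threshold. DESeq2 gave an adjusted p of 0.00442 and limma 0.0465 for the latter. For *db/db*-dapa against *db/db* the log2 fold change was −0.67 (SE 0.68, 95% interval −2.17 to 0.83, edgeR adjusted p = 0.872), so these samples did not resolve a difference of either sign. The exact permutation p (two-sided, difference of means) was 0.1 in both comparisons with *db/m*, the smallest that 3 against 3 mice can give. Both comparisons with *db/m* share their control mice.

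The *Il34* call in *db/db*-dapa against *db/m* mice did not hold in every fit with 1 mouse left out. It was lost when *db/m* replicate 1, 2 or 3 or *db/db*-dapa replicate 2 or 3 was left out, with log2 fold changes from −3.36 to −2.67 and adjusted p from 0.120 to 0.347. It stayed without *db/db*-dapa replicate 1, at −4.35 (adjusted p = 0.0206). The direction was the same each time. Markers of the loop of Henle, distal tubule and collecting duct summed to 1535, 1180 and 2913 CPM in *db/m*, 1988, 973 and 998 CPM in *db/db* and 1027, 835 and 938 CPM in *db/db*-dapa, none of the 8 at 0 in all mice. *db/db*-dapa mice lay below *db/m* mice for this sum too, *db/db* mice overlapped both, and the part of these cells in the *Il34* values was not tested.

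*Csf1* (chr3:107741048-107760469, minus strand) encodes macrophage colony-stimulating factor, the other ligand of the same receptor. It measured 18.1, 33.5 and 7.11 CPM in *db/m*, 11.6, 6.60 and 4.93 CPM in *db/db*, and 17.6, 17.6 and 6.56 CPM in *db/db*-dapa. The groups overlapped, with replicate 3 lowest in each. The mean in *db/db*, 7.69 ± 3.45 CPM, was 2.54-fold below the 19.6 ± 13.3 CPM of *db/m* (log2 fold change −1.41, SE 0.55, 95% interval −2.63 to −0.20, adjusted p = 0.287). Without *db/m* replicate 2, the highest mouse, the log2 fold change was −0.78. *db/db*-dapa mice averaged 13.9 ± 6.37 CPM, with a log2 fold change of 0.91 against *db/db* (SE 0.55, 95% interval −0.30 to 2.12, adjusted p = 0.854) and −0.51 against *db/m* (SE 0.52, adjusted p = 0.602). The *Csf1r* receptor of both ligands, a macrophage gene, was at 26.3 CPM in *db/m*, 20.1 CPM in *db/db* and 13.4 CPM in *db/db*-dapa by group mean.

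**Figure D1:**
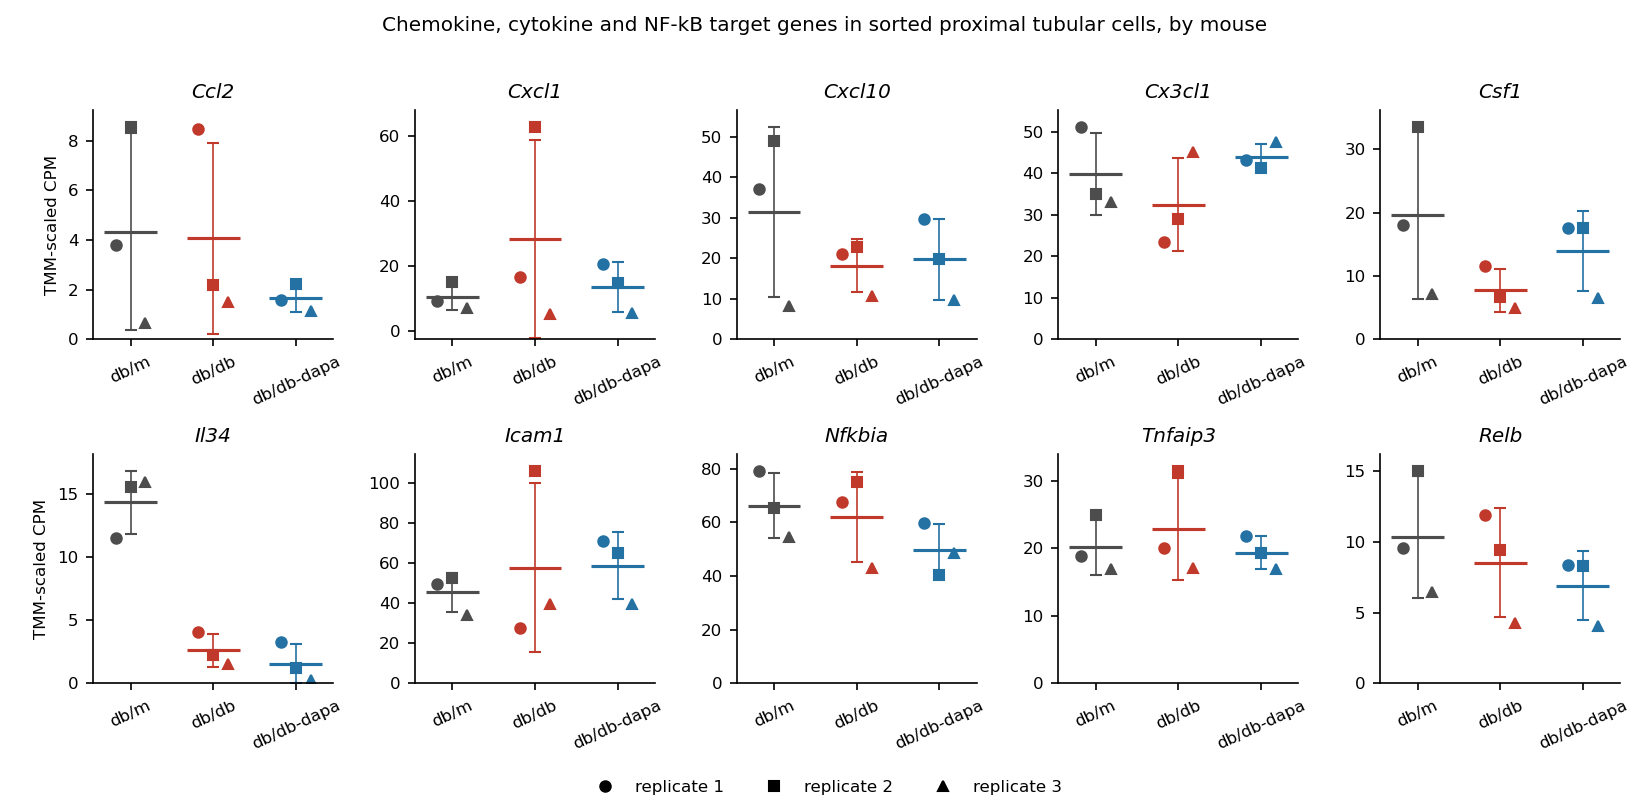
TMM-scaled CPM of the 10 genes in each of the 9 mice, 1 panel per gene with its own axis; horizontal bars are group means and whiskers 1 SD (n = 3). *Il34* separates *db/m* mice (11.5 to 16.0 CPM) from all diabetic mice (at most 4.08 CPM), and the high *db/db* mean of *Cxcl1* comes from replicate 2 at 62.8 CPM.

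*Cxcl1* (chr5:90891241-90893115, plus strand) encodes a chemokine that attracts neutrophils through CXCR2. It measured 9.13, 14.8 and 7.11 CPM in *db/m*, 16.7, 62.8 and 5.05 CPM in *db/db*, and 20.4, 14.6 and 5.32 CPM in *db/db*-dapa. 1 *db/db* mouse, replicate 2, stood far above the other 8, whose values interleaved. A log2 fold change of 1.43 was found in *db/db* against *db/m* (SE 0.74, 95% interval −0.19 to 3.06, adjusted p = 0.422) and −0.02 without that mouse. Against *db/db*, *db/db*-dapa mice had −1.07 (SE 0.72, 95% interval −2.65 to 0.51, adjusted p = 0.854) and 0.38 without it. The same mouse was highest of the 9 for the summed neutrophil markers (68.4 CPM, against 3.79 CPM to 34.8 CPM in the others) and for the summed immediate-early genes, the first genes switched on by growth and stress signals (10240 CPM, against 3736 CPM to 7920 CPM). None of the 5 neutrophil markers was at 0 in all mice, and the part of these cells in the *Cxcl1* values was not tested.

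*Ccl2* (chr11:82035571-82037453, plus strand) encodes MCP-1, the ligand of CCR2 that recruits monocytes. It was low in every mouse: 3.78, 8.55 and 0.666 CPM in *db/m*, 8.50, 2.2 and 1.52 CPM in *db/db*, and 1.56, 2.23 and 1.13 CPM in *db/db*-dapa. Its SD was nearly as large as its mean in *db/m* (4.33 ± 3.97 CPM) and *db/db* (4.07 ± 3.85 CPM), and smaller in *db/db*-dapa (1.64 ± 0.555 CPM). The log2 fold change was −0.22 in *db/db* against *db/m* (SE 0.78, adjusted p = 0.926), and it turned positive, at 0.72, without *db/m* replicate 2. It was −1.20 in *db/db*-dapa against *db/db* (SE 0.82, 95% interval −3.0 to 0.61, adjusted p = 0.854), and −0.16 without *db/db* replicate 1, the highest *db/db* mouse. Treated mice against *db/m* had −1.41 (SE 0.80, 95% interval −3.16 to 0.33, adjusted p = 0.351), with a range of −1.91 to −0.49 as single mice were left out. The receptor gene *Ccr2* lay at 0.849 CPM in *db/m*, 1.26 CPM in *db/db* and 0.352 CPM in *db/db*-dapa by group mean.

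*Cxcl10* (chr5:92346638-92348889, minus strand) encodes a T-cell chemokine that is induced by interferons as well as by NF-κB. It measured 37.0, 49.0 and 8.22 CPM in *db/m*, 21.1, 22.8 and 10.6 CPM in *db/db*, and 29.7, 19.7 and 9.73 CPM in *db/db*-dapa. Replicate 3 was lowest in each group and the groups overlapped. Its log2 fold changes were −0.82 in *db/db* against *db/m* (SE 0.56, adjusted p = 0.557), 0.13 in *db/db*-dapa against *db/db* (SE 0.56, adjusted p = 0.969) and −0.69 in *db/db*-dapa against *db/m* (SE 0.55, adjusted p = 0.497). Its receptor gene *Cxcr3* was detected in 3 of the 9 mice, at no more than 0.630 CPM.

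*Cx3cl1* (chr8:94772009-94782427, plus strand) encodes fractalkine, a membrane-bound chemokine for CX3CR1 on monocytes. Its level was 51.0, 34.9 and 33.1 CPM in *db/m*, 23.5, 28.8 and 45.0 CPM in *db/db*, and 43.2, 41.2 and 47.4 CPM in *db/db*-dapa. Within both diabetic groups replicate 3 was its highest mouse, as for *Cxcl12*, a chemokine described below. In this it differed from *Ccl2*, *Cxcl1* and *Cxcl10*, for which replicate 3 was the lowest mouse of both groups. It had a log2 fold change of −0.28 in *db/db* against *db/m* (SE 0.25, 95% interval −0.82 to 0.27, adjusted p = 0.664) and, for *db/db*-dapa against *db/db*, one of 0.42 (SE 0.25, 95% interval −0.12 to 0.96, adjusted p = 0.854). A log2 difference of 1 in either direction lay outside both intervals.

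*Icam1* (chr9:21015985-21028817, plus strand) encodes the adhesion molecule that binds leukocyte integrins. It measured 49.8, 52.5 and 34.2 CPM in *db/m*, 27.9, 106 and 39.8 CPM in *db/db*, and 71.4, 65.1 and 39.8 CPM in *db/db*-dapa. As for *Cxcl1*, the highest mouse was *db/db* replicate 2, and *db/db* also held the lowest. The log2 fold change was 0.35 in *db/db* against *db/m* (SE 0.42, adjusted p = 0.748), which became −0.41 without that mouse, and 0.01 in *db/db*-dapa against *db/db* (SE 0.41, 95% interval −0.90 to 0.92, adjusted p = 0.998). The genes of its integrin partners, *Itgal* and *Itgb2*, were each highest in *db/db* replicate 1 (13.9 and 14.3 CPM) and at most 4.80 CPM in the other 8 mice.

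*Nfkbia* (chr12:55489410-55492647, minus strand), the inhibitor IκBα, had the highest group mean per transcript length among the 10 genes in each group. Single mice of *Cxcl1* in *db/db* (65.9 against at most 47.7 CPM per kb) and of *Cxcl10* in *db/m* (36.2 against at least 34.6 CPM per kb) reached its range or above. *Icam1* mice also reached that range, in *db/db* (41.8 against at least 27.2 CPM per kb) and in *db/db*-dapa (28.2 against at least 25.5 CPM per kb). *Nfkbia* measured 79.1, 65.3 and 54.6 CPM in *db/m*, 67.6, 75.2 and 42.9 CPM in *db/db*, and 59.9, 40.3 and 48.6 CPM in *db/db*-dapa. The ranges overlapped throughout. The log2 fold change was −0.11 in *db/db* against *db/m* (SE 0.24, 95% interval −0.63 to 0.42, adjusted p = 0.877), −0.31 in *db/db*-dapa against *db/db* (SE 0.24, 95% interval −0.84 to 0.21, adjusted p = 0.854) and −0.42 in *db/db*-dapa against *db/m* (SE 0.24, 95% interval −0.94 to 0.10, adjusted p = 0.353).

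*Tnfaip3* (chr10:19000910-19015657, minus strand) encodes A20, an enzyme that edits ubiquitin chains and shuts off IKK signalling. It varied least between groups: 18.9, 24.9 and 16.9 CPM in *db/m*, 20.1, 31.4 and 17.1 CPM in *db/db*, and 21.9, 19.3 and 17.0 CPM in *db/db*-dapa. Its highest mouse was again *db/db* replicate 2. The log2 fold changes were 0.17 (SE 0.26, 95% interval −0.39 to 0.73, adjusted p = 0.801) in *db/db* against *db/m* and −0.24 (SE 0.25, 95% interval −0.79 to 0.32, adjusted p = 0.875) in *db/db*-dapa against *db/db*.

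*Relb* (chr7:19606217-19629438, minus strand) encodes the subunit of the non-canonical NF-κB pathway. Its levels were 9.61, 15.0 and 6.44 CPM in *db/m*, 11.9, 9.40 and 4.29 CPM in *db/db*, and 8.38, 8.27 and 4.07 CPM in *db/db*-dapa. Replicate 3 was lowest in each group. *Relb* had log2 fold changes of −0.33 in *db/db* against *db/m* (SE 0.44, adjusted p = 0.777), −0.27 in *db/db*-dapa against *db/db* (SE 0.44, adjusted p = 0.919) and −0.59 in *db/db*-dapa against *db/m* (SE 0.43, adjusted p = 0.459). The group means of the other subunit genes, control mice first and treated mice last, were as follows: *Rela* at 49.7, 45.8 and 46.8 CPM, *Nfkb1* at 24.3, 27.2 and 22.9 CPM, *Nfkb2* at 29.6, 28.0 and 23.3 CPM and *Rel* at 1.33, 1.86 and 2.25 CPM. None of them was called.

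Counted together, 0 of the 10 genes were called in *db/db* against *db/m* mice, where 1.24% of all genes tested were. 2 of the 10 were under an unadjusted p of 0.05, *Il34* and *Csf1*, and DESeq2, limma and limma with a weight for each mouse each called 1, *Il34*. Of all genes, 13.7% were under that p, and these tools called 2.33%, 1.28% and 1.68%. For *db/db*-dapa against *db/db*, 0 of the 10 and 0% of all genes were called, although 808 of the 15583 genes were under an unadjusted p of 0.05, none of them among the 10. DESeq2 called 13 genes there, limma 0 and limma with weights 449, none of them among the 10. For *db/db*-dapa against *db/m*, 1 of the 10 was called, where 1.05% of all genes were. Groups without any overlap between their mice were found for 1 of 10 genes in *db/db* against *db/m* (16.4% of all genes), 0 in *db/db*-dapa against *db/db* (10.2%) and 1 in *db/db*-dapa against *db/m* (28.1%), a share under the background in each.

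The median log2 fold change of the 10 genes was −0.25 in *db/db* against *db/m* (0.02 over all genes), with 3 higher and 7 lower. It was −0.25 in *db/db*-dapa against *db/db* (−0.01 over all genes), with 4 higher and 6 lower, and −0.46 in *db/db*-dapa against *db/m* (−0.02 over all genes), with 3 higher and 7 lower. Single mice moved these medians. Without *db/db* replicate 3 the first became 0.06, without *db/db* replicate 2 the second became 0.20, and without *db/m* replicate 2 the last became −0.08. At the other end, the first was −0.49 and the last −0.70 without *db/m* replicate 3, and the second −0.46 without *db/db* replicate 3. The last median stayed negative whichever mouse was left out. The first became −0.04 without *db/m* replicate 2, and the second −0.05 without *db/db*-dapa replicate 3.

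**Figure D2:**
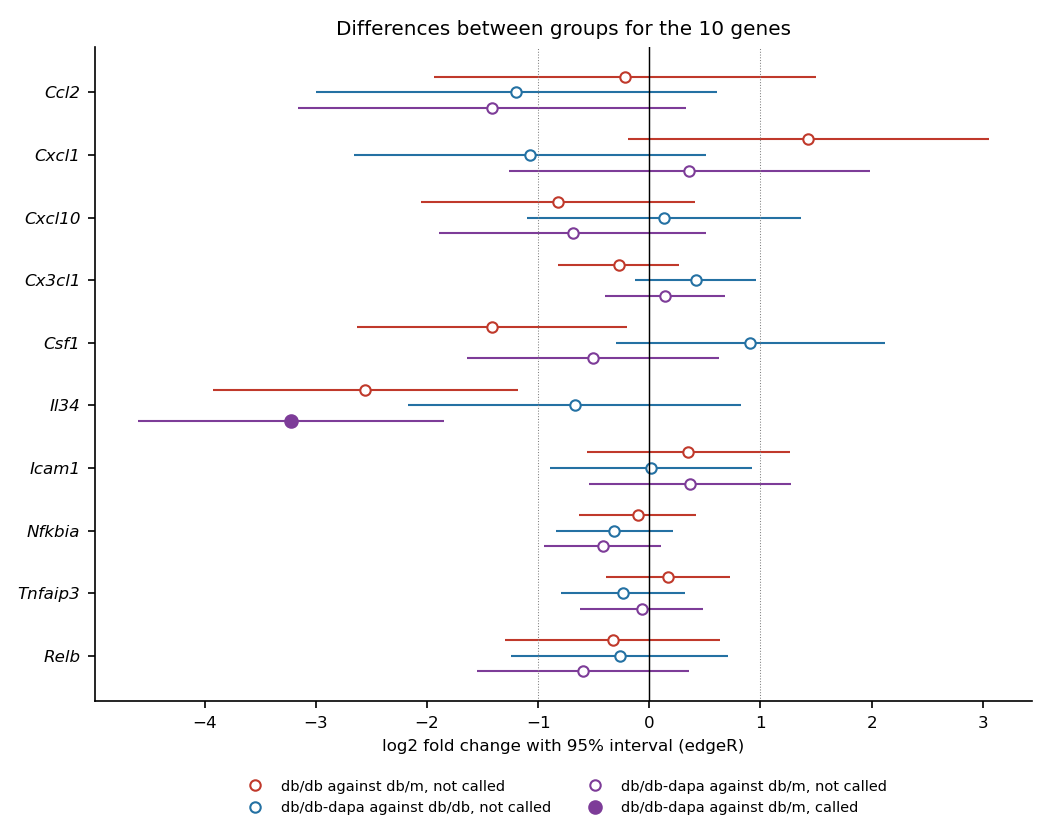
Log2 fold change (x axis) with its 95% interval for each of the 10 genes in the 3 comparisons, from edgeR; the filled point is the 1 call, *Il34* in *db/db*-dapa against *db/m* at −3.23, and dotted lines mark a log2 fold change of 1 in either direction. The intervals of *Il34* in both comparisons with *db/m* and of *Csf1* in *db/db* against *db/m* leave out 0, and all others include it.

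Per kilobase of the longest protein-coding transcript (GENCODE vM21, GRCm38), the group mean level of *Nfkbia* was 42.0 CPM per kb in *db/m*, 39.2 CPM per kb in *db/db* and 31.4 CPM per kb in *db/db*-dapa. *Cxcl10* came next in *db/m* at 23.2 CPM per kb and *Icam1* followed at 17.9 CPM per kb, but the mice of these genes overlapped (6.07 to 36.2 and 13.5 to 20.7 CPM per kb). *Il34*, at 7.98 CPM per kb in *db/m*, took the sixth place there and was the lowest of the 10 genes in both diabetic groups, at 1.45 and 0.867 CPM per kb. In *db/m* mice it stood above *Csf1*, at 4.69 CPM per kb, and in *db/db* and *db/db*-dapa mice below it, at 1.84 and 3.33 CPM per kb. The mice of *Il34* and *Csf1* overlapped in *db/m* and *db/db*, and in *db/db*-dapa by the narrow margin of 1.82 against 1.57 CPM per kb.

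The spread between mice of 1 group had a shape of its own. *db/m* replicate 3 was the lowest of its group for 9 of the 10 genes (all but *Il34*), whereas it was lowest for 37.7% of all genes tested. *db/db* replicate 3 was lowest for 8 of 10 (37.8% of all genes) and *db/db*-dapa replicate 3 for 8 of 10 (32.6%). At the other end, *db/m* replicate 2 was highest for 7 of 10 (32.4%), *db/db* replicate 2 for 5 of 10 (28.9%) and *db/db*-dapa replicate 1 for 8 of 10 (40.1%). *db/db*-dapa replicate 1 was also the highest of the 9 mice for summed podocyte markers (220.4 CPM, against 16.5 to 72.7 CPM) and fibroblast and pericyte markers (15.6 CPM, against at most 7.09 CPM), and had 199 CPM of endothelial markers, against 60.7 and 48.8 CPM in its group. The part of these cells in its levels of the 10 genes was not tested. *Cx3cl1* was the exception in both diabetic groups, with replicate 3 as its highest mouse.

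The same 3 mice were lowest of their groups for the summed macrophage and monocyte markers, at 55.7 CPM against 95.8 and 124 CPM in *db/m*, 60.6 CPM against 145 and 155 CPM in *db/db*, and 39.4 CPM against 63.4 and 97.8 CPM in *db/db*-dapa. They were lowest for the summed interferon targets too, at 299 CPM against 446 and 755 CPM, 205 CPM against 330 and 406 CPM, and 234 CPM against 309 and 424 CPM. None of the 12 macrophage and monocyte markers was at 0 in all mice. The part of these cells in the levels of the 10 genes was not tested.

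**Figure D3:**
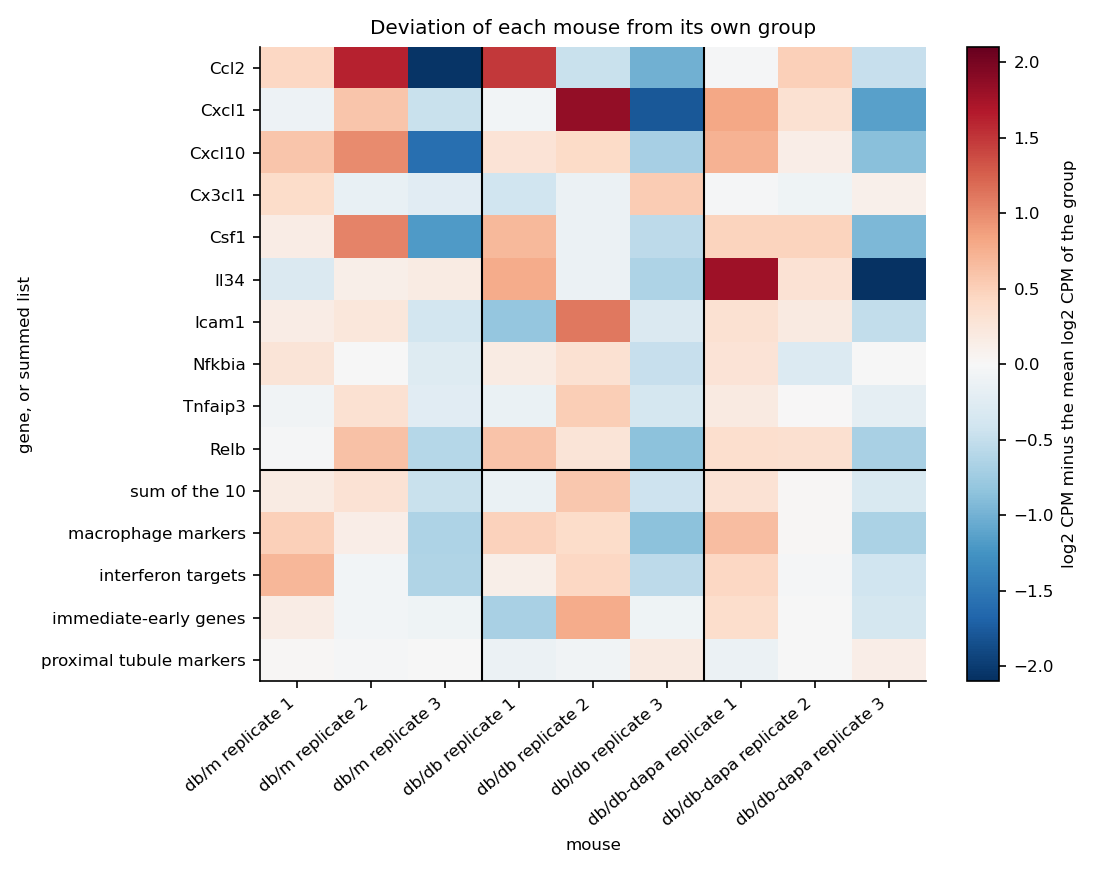
Colour shows log2 CPM of a mouse (columns) minus the mean log2 CPM of its own group, for the 10 genes and, under the line, for summed lists. Replicate 3 columns are blue for most of the 10 genes, for macrophage markers (−0.64, −0.87 and −0.67) and for interferon targets (−0.64, −0.56 and −0.42), while proximal tubule markers stay within 0.19 of the group mean.

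Across the 9 mice, group differences included, the most similar pair among the 10 genes was *Cxcl1* and *Tnfaip3* (Pearson r = 0.93 of log2(CPM + 1)). Outside the list, among genes with a mean of at least 5 CPM, *Il34* was most like *Tmem86a* (r = 0.96) and *Tinagl1* (r = 0.96), and *Csf1* most like *Glod4* (r = 0.99) and *Pdgfb* (r = 0.94). *Ifngr1*, a subunit of the interferon-γ receptor, was the nearest gene to both *Cxcl1* (r = 0.93) and *Tnfaip3* (r = 0.98). *Icam1* was nearest to *Rhob* (r = 0.97), *Relb* to *Serpinb6b* (r = 0.94), *Cxcl10* to *Tpm3* (r = 0.95), *Cx3cl1* to *Psmd1* (r = 0.98), *Nfkbia* to *Nsmce2* (r = 0.98) and *Ccl2* to *Rtn4* (r = 0.95). These are the highest of many correlations over 9 mice that share libraries and groups, and are given as a description.

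The wider lists of the pathway, which also hold the 10 genes where they belong, gave 2 further calls, both of ligands. *Ccl28*, a chemokine made by mucosal and other epithelia, fell in *db/db* mice: its counts were 18, 25 and 29 in *db/m*, 0, 2 and 4 in *db/db*, and 11, 4 and 18 in *db/db*-dapa. Every *db/db* mouse was below every *db/m* mouse. The log2 fold change in *db/db* against *db/m* was −3.57 (SE 0.72, adjusted p = 0.0460). Treated mice had 1.37 ± 0.773 CPM, between 0.302 ± 0.267 CPM in *db/db* and 4.55 ± 1.81 CPM in *db/m*, and not called against either by edgeR. Against *db/m* it was called with DESeq2 (adjusted p = 0.0991), with limma weights (0.0171) and with only these groups fitted (0.0998). The *Ccl28* call was lost without *db/m* replicate 2 or 3 or *db/db* replicate 2, with adjusted p up to 0.137, and with limma weights for each mouse (adjusted p = 0.103). The log2 fold change there was −3.26 to −3.65, so it stayed about as large.

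*Cxcl12*, the ligand of CXCR4 that retains and guides many CXCR4+ cells, rose in *db/db*-dapa mice relative to *db/m*. It measured 29.0, 28.4 and 26.2 CPM in *db/m*, 35, 42.8 and 88.9 CPM in *db/db*, and 72.1, 80.2 and 99.5 CPM in *db/db*-dapa. All diabetic mice lay above all *db/m* mice, and *db/db* overlapped *db/db*-dapa through replicate 3. *db/db*-dapa averaged 3.01-fold *db/m* (84.0 ± 14.1 against 27.9 ± 1.47 CPM, log2 fold change 1.59, SE 0.30, adjusted p = 0.0544). In *db/db* the log2 fold change was 1.01 against *db/m* (adjusted p = 0.177). It was 0.48 without *db/db* replicate 3, the highest of the group, and 1.25, a call, without *db/db* replicate 1 (adjusted p = 0.0866). Leaving out *db/m* replicate 1, 2 or 3 or *db/db*-dapa replicate 2 or 3 ended the call in *db/db*-dapa against *db/m*, with adjusted p up to 0.220. Against *db/db*, the log2 fold change in *db/db*-dapa was 0.58, not called, and 0.34 to 1.12 with single mice left out. There 1 of 17 alternative fits gave a call.

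Of 33 ligand genes tested, these and *Il34* were the edgeR calls. DESeq2 called 2, 0 and 6 ligands in *db/db* against *db/m*, *db/db*-dapa against *db/db* and *db/db*-dapa against *db/m*, limma 2, 0 and 2, and limma with weights 1, 5 and 10. Of all genes tested, in the same order, DESeq2 called 2.33%, 0.0834% and 3.25% and limma 1.28%, 0% and 0.937%. Limma with weights called 1.68%, 2.88% and 10.4% of all genes. The median ligand log2 fold change was −0.22 in *db/db* against *db/m*, −0.33 in *db/db*-dapa against *db/db* and −0.67 in *db/db*-dapa against *db/m*, where 26 of 33 were lower. Its sign depended on single mice: it was 0.05 without *db/m* replicate 1 and 0.18 without *db/db* replicate 3 in *db/db* against *db/m*, and 0.04 without *db/db* replicate 2 in *db/db*-dapa against *db/db*. In *db/db*-dapa against *db/m* it ran from −0.80 to −0.41, weakest without *db/m* replicate 2. Of 19 receptors edgeR called none. With treatment 16 of them were lower than in untreated *db/db* mice (median −1.19), 6 with an unadjusted p under 0.05 (5.19% of all genes), while DESeq2 and limma called 0 there and limma with weights 5. That median ran from −1.68 to −0.53 with single *db/db* or treated mice left out, the extremes without *db/db* replicate 3 and replicate 2, and it was −0.68 without *db/db* replicate 1. The lowest were *Itgal* (1.77 against 6.67 CPM) and *Ccr2*, and the highest *Ackr3*, a scavenging receptor of CXCL12 (54.5 against 43.8 CPM). The macrophage and monocyte markers had a like median there, −0.995, with 11 of 12 lower, 0 called by edgeR, DESeq2 or limma, 2 by limma with weights, and 3 under an unadjusted p of 0.05. It ran from −1.48 without *db/db*-dapa replicate 1 to −0.52 without *db/db* replicate 1. Other marker lists had lower values there too, with 0 called by edgeR: all 5 neutrophil markers (median −2.02), all 4 T-cell markers (−1.52), all 8 endothelial markers (−0.53) and all 8 markers of the loop of Henle, distal tubule and collecting duct (−0.66). None of the endothelial, neutrophil and T-cell markers had an unadjusted p under 0.05, and 1 of the last list had. Limma with weights called 3 endothelial markers and 2 of the last list. The neutrophil and T-cell sums were highest in *db/db* replicate 2, at 68.4 and 3.80 CPM. Neutrophil sums of the other *db/db* mice, 13.3 and 3.79 CPM, overlapped the 6.83 to 16.6 CPM of treated mice. Their T-cell sums, 0.340 and 0.505 CPM, lay within the 0.226 to 1.14 CPM of treated mice. Other lists were not lower: all 4 podocyte markers were higher (median 1.40), with *db/db*-dapa replicate 1 at 220 CPM for their sum. Of the proximal tubule markers 8 of 12 were higher (median 0.23), and fibroblast and pericyte markers were split, 3 higher and 3 lower (median 0.26). The summed macrophage level ran from 60.6 to 155 CPM in *db/db* and from 39.4 to 97.8 CPM in *db/db*-dapa, and the part of these cells in the receptor values was not tested. *Csf1r* is also a macrophage marker and *Cxcr2* a neutrophil marker in these lists.

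Genes of the signalling machinery differed little by list median, although single genes of these lists differed by more. Of 5 subunit genes, 20 inhibitors and feedback genes, and 40 IKK and upstream genes none was called in any comparison, and no list median was further than 0.23 from 0. At most 4 genes of any of these lists were under an unadjusted p of 0.05, DESeq2 and limma called 0, and limma with weights called 1 inhibitor and 1 upstream gene in *db/db*-dapa against *db/m*. Among inhibitors, *Nfkbid* (2.19 against 4.66 CPM) and *Zc3h12a*, which degrades cytokine transcripts (6.10 against 10.4 CPM), were the lowest in *db/db*-dapa relative to *db/db*. *Rnf11*, a partner of A20 (181 against 144 CPM), and *Traf3* (23.2 against 16.5 CPM) were the highest. Among IKK and upstream genes, *Traf1* (log2 fold change −1.43, SE 0.72) and *Cd40* (−1.31, SE 0.70) were the lowest there. *Tlr4* (1.01, SE 0.91) and *Tnfrsf12a* (0.52, SE 0.47) were the highest of that list. These values had wide errors and were not resolved. Of 37 other NF-κB targets and 9 adhesion genes none was called, and the target medians were −0.10, −0.12 and −0.29 in the 3 comparisons in the order above. 6, 3 and 6 of the 37 targets and 0 of the adhesion genes were under an unadjusted p of 0.05, as were 13.7%, 5.19% and 18.2% of all genes, so the targets lay near that background. DESeq2 called 1 of the targets in *db/db*-dapa against *db/m* (3.25% of all genes) and limma 0 in any comparison. Limma with weights called 0, 2 and 3 targets and 0, 0 and 3 adhesion genes (1.68%, 2.88% and 10.4% of all genes).

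Of 30 interferon targets, the second group to which *Cxcl10* belongs by induction, none was called, but 23 were lower in *db/db* than in *db/m* (median −0.64) and 26 in *db/db*-dapa than in *db/m* (median −1.07). Of the 30 in *db/db*-dapa against *db/m*, 10 had an unadjusted p under 0.05, as had 18.2% of all genes, DESeq2 called 2 (3.25% of all genes), limma 0 and limma with weights 15 (10.4% of all genes). In *db/db* against *db/m* 7 had one, as had 13.7% of all genes, DESeq2 called 3 (2.33% of all genes) and both limma fits 0. The median in *db/db*-dapa against *db/m* ran from −1.41 to −0.58 as single mice were left out, the weakest without *db/m* replicate 1. In *db/db* against *db/m* it ran from −1.04 to −0.25, again weakest without *db/m* replicate 1, which had the highest interferon sum of all mice, 755 CPM. The 25 immediate-early genes had medians of 0.12, −0.21 and −0.04 and 0 calls, with 2, 0 and 2 of them under an unadjusted p of 0.05. Of all genes, 13.7%, 5.19% and 18.2% were under that p. DESeq2 called 1, 0 and 1 of the immediate-early genes (2.33%, 0.0834% and 3.25% of all genes) and limma 0. Limma with weights called 0, 1 and 1 of them (1.68%, 2.88% and 10.4% of all genes). Without *db/db* replicate 2 the medians became −0.35 (7 of 25 higher) in *db/db* against *db/m* and 0.27 (21 of 25 higher) in *db/db*-dapa against *db/db*. The median in *db/db*-dapa against *db/m* lay between −0.34 and 0.14 with single mice left out.

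**Figure D4:**
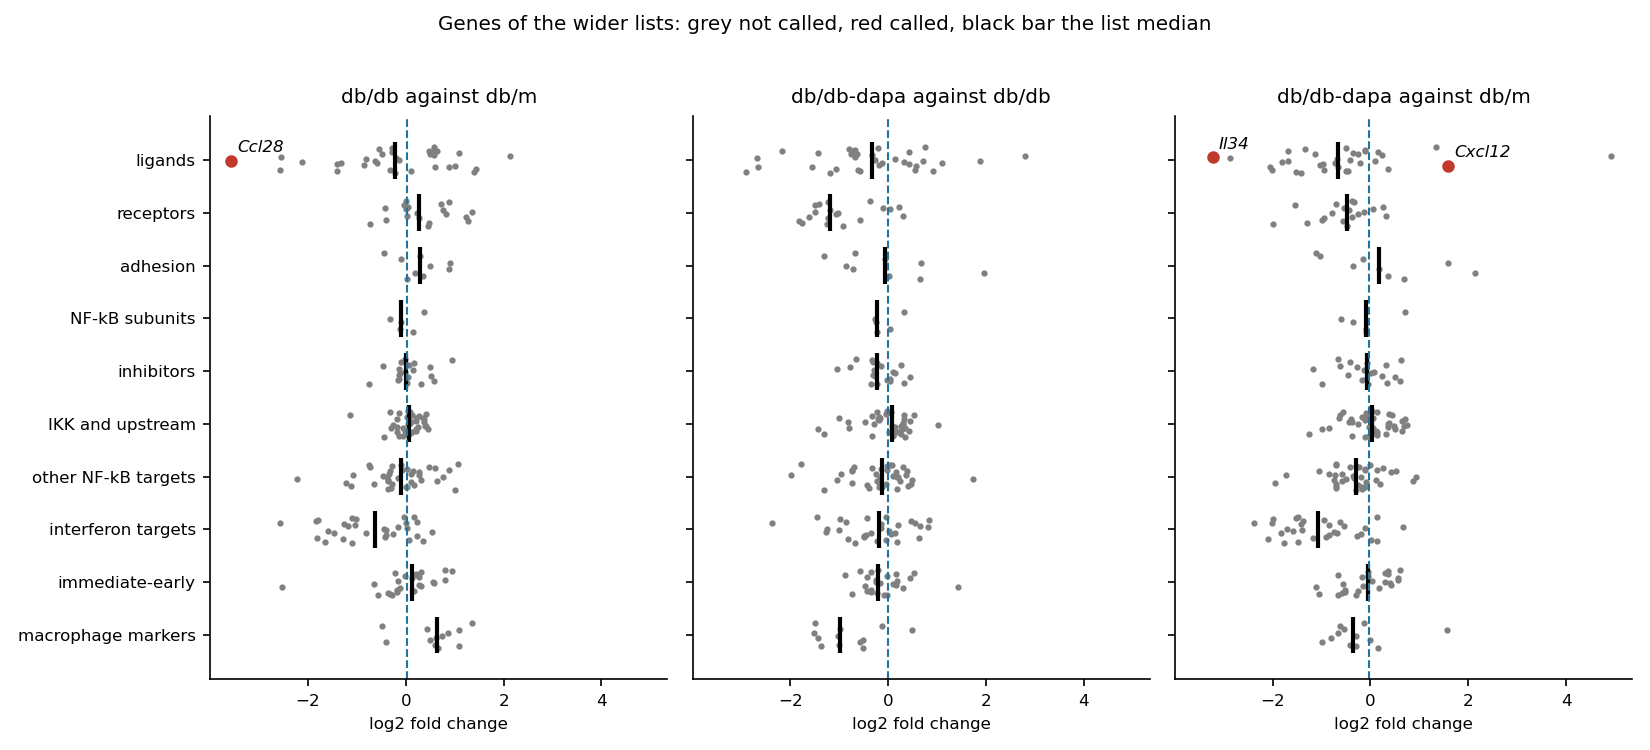
Log2 fold change (x axis, the same in all panels) of every tested gene of 10 lists (y axis) in the 3 comparisons; grey points were not called, red points were, black bars are list medians and the dashed line is the median of all genes tested. The calls are *Ccl28* at −3.57, *Il34* at −3.23 and *Cxcl12* at 1.59, and the lowest list median is that of the interferon targets in both comparisons with *db/m* (−0.64 and −1.07) and of the receptors in *db/db*-dapa against *db/db* (−1.19).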

How the data were processed

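RNA was sequenced from tdTomato+ cells of 9 mice with a stranded mRNA kit, 101-base single reads. According to the methods of the study and the submitters' processing notes, the authors mapped reads to mm10 with TopHat2 2.0.13, Bowtie2 2.2.3 and SAMtools 0.1.19 and ran Cufflinks 2.2.1. Although named for FPKM, the deposited table holds estimated counts by its values, since 85.9% of those above 0 were exactly whole and library totals differed. How the authors counted, and whether strand was used, is not given in the sources used here. Exons of *Cxcl10*, *Icam1* and *Il34* share 133, 511 and up to 75 bases with genes on the other strand, so their reads could be mixed.

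Groups came from the GEO labels. Estimated counts were rounded, genes at 0.3 CPM or more in at least 2 of 9 mice were kept, scaling was by the trimmed mean of M values, and the edgeR quasi-likelihood test (edgeR 4.0.16, R 4.3.3) was fitted to all 9 mice with Benjamini-Hochberg adjustment. Calls used the thresholds of the study's methods, 0.1 for the adjusted p and 1 for the log2 fold change in either direction. Levels are scaled CPM. Exact two-sided permutation tests compared means of 3 against 3 mice. Alternatives were DESeq2 1.42.0, limma 3.58.1 on log2(CPM + 1), limma with a weight for each mouse, 3 other scalings, 3 other filters, a replicate block, fits to the compared groups alone, and each mouse left out. Leaving out a mouse leaves 2 in its group. The scripts were tested on simulated data.

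The 10 genes and the wider lists were chosen with earlier results of these data known. Named are the 10 genes, list genes called in any comparison, otherwise examples among the highest and lowest of a list in *db/db*-dapa against *db/db*, the receptors of the 10 genes' ligands and the NF-κB subunits. Settings for *Ccl28*, *Cxcl12* and the wider lists were added after seeing the data. Likeness is Pearson r of log2(CPM + 1) over 9 mice.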

Additional observations from a re-analysis of the deposited data

How the results depend on the processing

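The 30 log2 fold changes of the 10 genes were recomputed in 510 alternative fits of single values. 16 of 30 kept their direction throughout, among them all 3 of *Il34*. 468 values kept direction and side of the threshold, 8 gained a call, all of them *Il34* in *db/db* against *db/m*, and 5 lost one, all of them *Il34* in *db/db*-dapa against *db/m* with a mouse left out. Depth limits *Ccl2*, *Il34* and *Ccl28* most, whose values rest on few counts.

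Genes of the list called in *db/db* against *db/m* went from 0 to 1 with DESeq2, limma, limma with weights, no filter, filters of 0.5 CPM in 1 mouse or 1 CPM in 3 mice, the replicate block, and the 2 groups alone, and stayed 0 when any mouse was left out. In *db/db*-dapa against *db/m* they ranged from 0 to 1 with mice left out, and in *db/db*-dapa against *db/db* they stayed 0. All genes called in *db/db* against *db/m* were 194, or 363 with DESeq2, 115 with the 2 groups alone and 85 to 230 with mice left out. The calls in *db/db*-dapa against *db/db* were 0, or 13 with DESeq2, 449 with weights and 0 to 272 with mice left out. In *db/db*-dapa against *db/m* they were 164, or 507 with DESeq2, 1619 with weights, 275 with no filter, 630 with the 2 groups alone and 14 to 264 with mice left out. Scaling by total counts alone moved the median of all genes in *db/db* against *db/m* from 0.02 to 0.13 and the share of higher calls from 43.8% to 60.3%. The causes were not tested.

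Same-numbered mice of different groups correlated at −0.32 to 0.56 in their deviations, with 3 of 9 pairs over 0.1. Other pairs ran from −0.61 to 0.36, and 4 of 9 mice were closest to their own number. The highest value was that between replicate 3 of *db/db* and replicate 3 of *db/db*-dapa. With 3 mice per group such values cannot decide whether the number pairs mice, and the study describes no pairing. The replicate block called 185, 0 and 167 genes in the 3 comparisons and 1, 0 and 1 of the list, with *Il34* at an adjusted p of 0.0885 in *db/db* against *db/m*.

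Directions that turned, outside left-out mice, were small: *Ccl2* in *db/db* against *db/m* (0.0027 with limma), *Cxcl10* in *db/db*-dapa against *db/db* (−0.17 with weights) and *Icam1* there (−0.029 by total counts, −0.049 by upper quartile, −0.0013 at 1 CPM in 3 mice). With mice left out, the ranges that crossed 0 in *db/db* against *db/m* were −1.25 to 0.72 (*Ccl2*), −0.022 to 1.95 (*Cxcl1*), −0.41 to 0.67 (*Icam1*), −0.28 to 0.10 (*Nfkbia*), −0.14 to 0.35 (*Tnfaip3*) and −0.63 to 0.039 (*Relb*). The ranges in *db/db*-dapa against *db/db* were −1.59 to 0.38 (*Cxcl1*), −0.27 to 0.48 (*Cxcl10*), −0.30 to 0.78 (*Icam1*), −0.41 to 0.071 (*Tnfaip3*) and −0.60 to 0.031 (*Relb*). Those in *db/db*-dapa against *db/m* were −0.067 to 0.76 (*Cxcl1*), −0.90 to 0.12 (*Csf1*) and −0.18 to 0.11 (*Tnfaip3*).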
